A study of Drosophila melanogaster with 3 samples.

Results

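The data describe binding of the protein Mabi (CG15479) in and around 10 genes of the Polycomb group in Drosophila melanogaster embryos. The genes were taken by symbol, out of 13968 annotated protein-coding genes: Pc, ph-p, ph-d, Psc, Su(z)2, Sfmbt, pho, E(z), Scm and esc. The samples were 3 biological replicates of whole embryos of both sexes, collected from 0 to 4 h of development, from a single transgenic line that stably carries Mabi with GFP at its C-terminus. Chromatin bound by the fusion was pulled down and sequenced (ChIP-seq), with an antibody that the labels describe as anti-GFP in one field and by the name CG15479 in another. The labels give no promoter for the transgene and no second genotype, treatment or stage, so conditions could not be compared. The whole embryo mixes all its cells and several stages, and a peak found here may belong to some of them only. Whether the replicates came from separate collections is not stated beyond the word biological.

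For each replicate the authors deposited a list of 30000 peaks, and from the pooled replicates a further 30000. The irreproducible discovery rate (IDR) list, which keeps peaks whose ranks agree between replicates, held 4447 distinct intervals, some with several summits. The summit is the position of the highest signal in a peak. A summit was assigned to a gene if it lay in the gene model or within 5 kb of it. Signal has no stated scale and was compared only within a list, as a multiple of the list's median where replicates are set side by side. Read depth is unknown here, and the same control was used for all 3 replicates, so they are not independent of it. The strongest IDR peak lay at Mabi itself.

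Polycomb group proteins keep developmental genes such as the Hox genes silent once early patterning factors have gone. Polycomb repressive complex PRC1 compacts chromatin and holds Pc, which reads methylated histone H3, a Polyhomeotic protein (ph-p or ph-d) and Psc or its relative Su(z)2. Complex PRC2 methylates histone H3 through its enzyme E(z), with esc as a subunit. PhoRC brings the DNA-binding protein Pho together with Sfmbt, and Scm is a SAM domain protein that links the complexes. In flies they act at Polycomb response elements, stretches of DNA that often carry sites for Pho and for GAGA-type factors. In the early embryo much of their product is laid down by the mother.

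Sequence of 201 bases is given around 5 of the 34 summits, as examples (dm6, RefSeq copy, 5′ to 3′ on the minus strand, from which each of these genes is transcribed). The 5 summits are the strongest in the ph-p window, the strongest promoter summit of ph-p, and the strongest summits of ph-d, Sfmbt and E(z). Capitals mark matches on either strand to any of 5 short motifs, which were GCCAT (the core of the Pho site), GAGAG (GAGA factor and Pipsqueak), GTGTGT (Combgap), CAGGTA (Zelda) and TATCGATA (DREF).
ph-p window, upstream (chrX:2142397-2142597): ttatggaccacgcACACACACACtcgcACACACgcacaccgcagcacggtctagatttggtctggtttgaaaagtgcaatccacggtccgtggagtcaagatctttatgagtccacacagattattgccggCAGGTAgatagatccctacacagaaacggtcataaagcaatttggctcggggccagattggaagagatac
ph-p, promoter (chrX:2137866-2138066): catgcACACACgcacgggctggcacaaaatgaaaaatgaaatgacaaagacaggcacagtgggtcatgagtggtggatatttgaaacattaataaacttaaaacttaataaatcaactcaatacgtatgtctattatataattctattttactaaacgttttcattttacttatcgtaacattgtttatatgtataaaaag
ph-d, promoter (chrX:2123174-2123374): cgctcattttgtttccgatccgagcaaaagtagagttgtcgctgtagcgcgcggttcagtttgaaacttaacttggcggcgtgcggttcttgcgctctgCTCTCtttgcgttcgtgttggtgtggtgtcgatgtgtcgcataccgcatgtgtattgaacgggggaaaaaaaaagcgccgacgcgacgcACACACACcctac
Sfmbt, promoter (chr2L:13176710-13176910): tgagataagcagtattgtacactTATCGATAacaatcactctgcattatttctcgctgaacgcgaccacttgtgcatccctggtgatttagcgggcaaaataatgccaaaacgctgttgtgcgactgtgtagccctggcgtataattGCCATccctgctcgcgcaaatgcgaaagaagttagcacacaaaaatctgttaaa
E(z), promoter (chr3L:10637963-10638163): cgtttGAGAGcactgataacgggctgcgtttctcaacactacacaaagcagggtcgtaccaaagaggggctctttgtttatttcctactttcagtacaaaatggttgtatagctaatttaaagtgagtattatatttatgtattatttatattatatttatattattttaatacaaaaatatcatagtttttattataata

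These windows differ in composition and share no motif across all of them. GC content was 53.2% at ph-d, 49.8% in the upstream ph-p window and 44.3% at Sfmbt, and lower in the ph-p promoter window (30.3%) and at E(z) (28.4%). The upstream ph-p window held 4 overlapping or neighbouring GTGTGT matches and the single CAGGTA match found within 100 bp of any member's IDR summit. The Sfmbt window held the single TATCGATA match around these summits and 1 GCCAT. The printed windows do not stand for all summits. Around the strongest summit in the Pc window, not printed, GC content was 27.4% and none of the motifs matched.

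Mabi peaks lay at most of the 10 genes, and at several of them in number. An IDR summit lay in or within 5 kb of 8 members, against 40.5% of all protein-coding genes, and within 1 kb of an annotated transcription start site (TSS) at 7 members, against 18.4%. Pc, ph-p, ph-d, Psc, Su(z)2, Sfmbt and E(z) had such a promoter peak, Scm had peaks only beyond its 3′ end, and pho and esc had no IDR summit. The 8 genes held 34 summits in 24 intervals, 3 of them in the windows of both ph-d and ph-p. That is 1.92 summits per 10 kb of window, against 0.420 over the windows of all protein-coding genes. The members' windows were longer than usual, with a median of 18.4 kb against 12.2 kb, so a gene count alone favours them while the count per 10 kb does not depend on length in this way. The members were chosen with earlier results of these data known, and no test of the list was made.

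**Figure D1:**
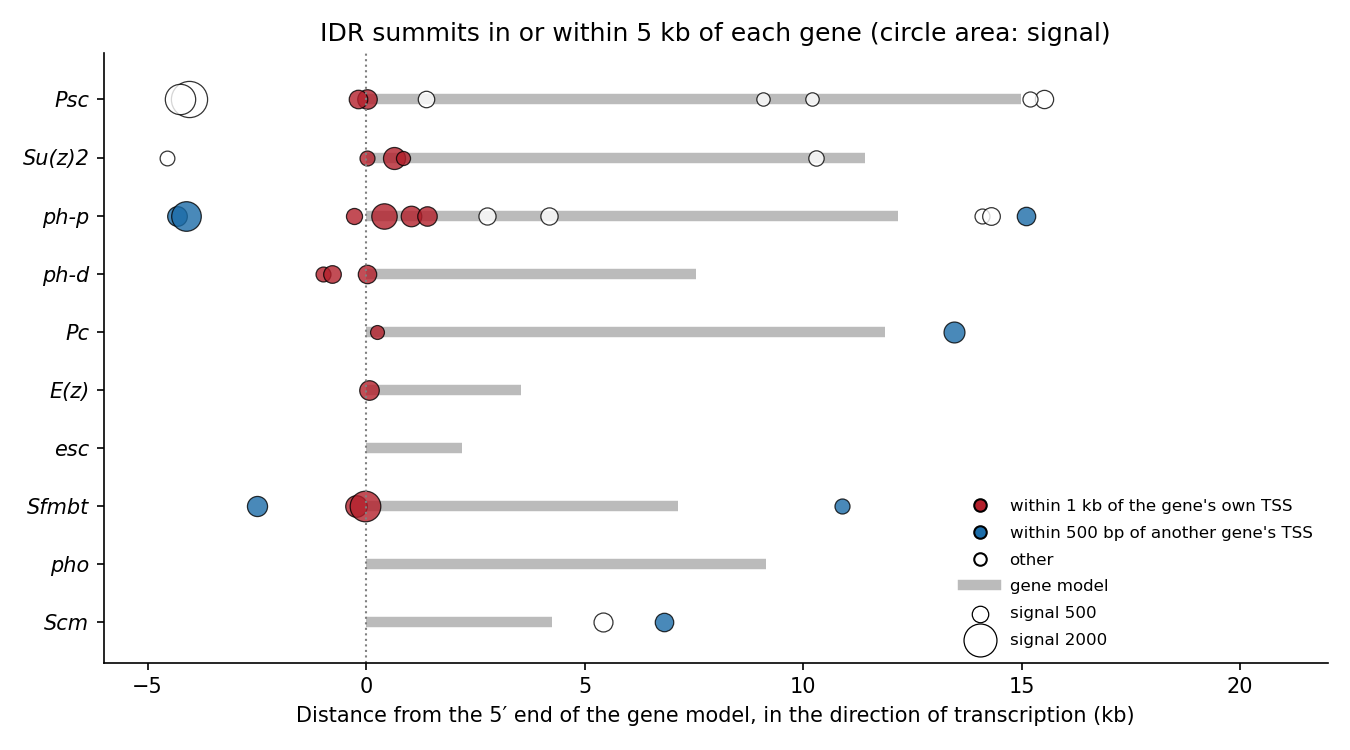
IDR summits (circles, area proportional to signal) by distance in kb from the 5′ end of each gene model (grey bars), in the direction of transcription. Red circles lie within 1 kb of the gene's own TSS, blue within 500 bp of another gene's TSS, white elsewhere; Psc and ph-p carry 9 and 11 summits with strong ones more than 4 kb upstream, while esc and pho carry none.

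The 34 summits fell into 4 positions. Within 1 kb of a TSS of the member lay 16, and 6 each lay farther upstream, farther inside and downstream. By annotation, 20 of the 34 (58.8%) lay within 500 bp of a TSS of any protein-coding gene, against 42.6% of all IDR summits. Introns held 5 (14.7%), against 35.1% of all IDR summits, and intergenic sequence held 7 (20.6%), against 15.1%. The members' summits come only from within 5 kb of the gene models and all IDR summits from the whole genome, so the shares are not drawn alike. Another protein-coding gene had a TSS within 1 kb of 11 of the 34, and for 23 the nearest TSS was that of the member. A peak shared by several promoters cannot be given to one of them from these data.

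The PRC1 genes Psc and Su(z)2 are neighbours on chromosome arm 2R and both code for RING finger proteins. Psc (12965997 to 12980994, minus strand) had the strongest peak near any member. It lay 4051 bp upstream of its 5′ end, in sequence annotated as intergenic, with an IDR signal of 2413 and rank 64. The same peak stood at 12.1, 16.2 and 18.4 times the list median in replicates 1, 2 and 3 (mean 15.6 ± 3.15, SD, n = 3). Replicate 1 was the lowest, though its value was above those of every other member in that replicate. A second summit in that interval, 204 bp farther out, had a signal of 1698 and rank 172.

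At its promoter Psc was less strongly occupied. Summits 31 bp inside and 175 bp upstream of the TSS had signals of 704 and 632, and the first stood at 5.42 and 6.26 times the list median in replicates 1 and 3. In replicate 2 no summit lay within 100 bp of it, and the nearest overlapping peak, at 4.24 times the median, lay 237 bp away and 31 bp from the second summit. The nearest summit inside the gene, 1045 bp from a TSS, had a signal of 499, and 2 more in an intron had 331 and 328. Beyond the 3′ end, summits 191 and 525 bp away had 417 and 615. In all, 9 IDR summits lay in the Psc window, a number reached or passed by 0.473% of protein-coding genes, without allowance for window length. No other gene's TSS lay within 1 kb of any of them.

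Su(z)2 (12996501 to 13007911, plus strand) had its strongest summit at an internal TSS. That summit lay 15 bp past the TSS and 637 bp past the 5′ end, with an IDR signal of 894 and rank 809. It had the smallest spread between replicates of the members' strongest peaks, at 6.23, 6.29 and 6.10 times the list median in replicates 1 to 3 (6.20 ± 0.0965, SD, n = 3). A summit 16 bp inside the outermost TSS had a signal of 413 and varied more, at 1.55, 4.14 and 2.48 times the median, and was not among the strong peaks of replicate 1. The remaining 3 summits had 365 near the internal TSS, 434 in the 3′ UTR and 400 at 4553 bp upstream. The gap between the Psc and Su(z)2 gene models measured 15.5 kb and held 5 IDR summits. Of these 5, a single summit lay outside both 5 kb windows.

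The Polyhomeotic genes ph-p and ph-d form a tandem pair on the X, separated by 2923 bp. ph-p (2126210 to 2138371, minus strand) had more summits in its window than any other member, 11, a number reached or passed by 0.193% of protein-coding genes. Of the 11, 3 were the summits at the ph-d promoter, and the farthest upstream ones lay at the TSS of D2hgdh. The share made no allowance for window length, 22162 bp here against a median of 12.2 kb. The strongest promoter summit of ph-p lay 405 bp inside the gene with a signal of 1191. It stood at 7.27, 10.7 and 5.27 times the list median in replicates 1, 2 and 3. The replicates spread widely here, and the strongest promoter peak of ph-p in replicate 3, at another summit, reached 9.51. A further 3 promoter summits had signals of 779, 699 and 477, and 2 in an intron had 547 and 540.

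The strongest summit in the ph-p window, with a signal of 1614 and rank 199, lay 4126 bp upstream of the gene. It stood at 10.2, 10.8 and 11.5 times the list median in the 3 replicates (10.8 ± 0.691, SD, n = 3), close together. The nearest TSS, 190 bp away, was that of D2hgdh, a metabolic enzyme gene, so the peak is also a promoter peak of that gene. A neighbouring summit with a signal of 714 lay 21 bp from the same TSS.

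ph-d (2115727 to 2123286, minus strand) held 3 summits, all within 1 kb of its TSS and all in 1 interval of 1872 bp. The summit 12 bp inside the gene had a signal of 626, at 2.94, 4.80 and 4.00 times the list median. Those 778 and 981 bp upstream had 574 and 411. The farther one stood at 1.33, 1.83 and 3.59 times the median in replicates 1, 2 and 3 (2.25 ± 1.19, SD, n = 3). The nearer one stood at 5.62 and 4.64 in replicates 2 and 3, while the nearest replicate 1 peak, at 1.74, lay 166 bp from it. The strongest replicate 1 peak at this promoter lay 155 bp inside the gene, at 4.20 times the median and rank 1467, so the replicates differed in where the promoter signal was highest. The gene models of the pair share sequence: 33.5% of the 31-base words of ph-d occurred in ph-p, and 20.8% of those of ph-p in ph-d. The sources used here do not say how reads that map to both copies were treated. Within the IDR intervals the share of words repeated anywhere in the genome was 5.37% for the ph-d promoter and 5.89% for the largest ph-p interval, and 0 for the others of the pair.

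Pc, whose chromodomain binds methylated histone H3, had a weak peak at its own promoter. On 3L (21306138 to 21318020, minus strand), a summit 241 bp inside the gene had an IDR signal of 356 and rank 3840, the lowest promoter signal among the 7 members that had one. It stood at 2.33, 1.93 and 2.77 times the list median and was outside the strongest peaks of replicate 2. Rab26, a small GTPase gene, had a TSS within 1 kb of it. The strongest summit in the window, with a signal of 807 and rank 997, lay 1562 bp beyond the 3′ end of Pc and 82 bp from the TSS of CG11309. In the Pc gene model 76.3% of 31-base words were repeated elsewhere in the genome, and in both of its IDR intervals 0%.

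The PRC2 genes E(z) and esc differed in whether they had a peak. E(z), the histone H3 methyltransferase gene (3L, 10634575 to 10638130, minus strand), had a single summit 67 bp inside the gene with a signal of 705 and rank 1299. It stood at 2.80, 5.29 and 4.85 times the list median in replicates 1, 2 and 3 (4.31 ± 1.33, SD, n = 3), lowest in replicate 1. Cnep1r2 had a TSS within 1 kb of the same summit. At esc (2L, 11827204 to 11829405, minus strand), no peak of any of the 5 lists had its summit in the window. A pooled summit lay near 80.6% of all protein-coding genes, and a replicate summit near 77.1%, 84.3% and 78.8% in replicates 1, 2 and 3. The nearest IDR summit was 10623 bp from the gene, with a signal of 694. No 31-base word of the esc window was repeated in the genome.

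Sfmbt and pho, which code for the subunits of PhoRC, also differed. Sfmbt (2L, 13169649 to 13176785, minus strand) had the strongest promoter peak of the members, 25 bp upstream of its TSS, with a signal of 1730 and rank 165. It stood at 9.62, 12.1 and 12.8 times the list median in replicates 1, 2 and 3 (11.5 ± 1.65, SD, n = 3). The TSSs of CG5439 and CG43925 lay within 1 kb of it, and a further summit 226 bp upstream of Sfmbt, with a signal of 858, was nearest to that of CG5439. Alg7 and DnaJ-H had the other summits of the window at their own TSSs, with 746 and 416. Sfmbt lies 57.0 kb from Mabi, the tagged gene. The sources used here do not say whether the transgene carries DNA of that neighbourhood.

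pho (4, 1172469 to 1181628, minus strand) had no IDR summit in its window. It had 5 peaks in replicate 1, at 0.623 to 1.38 times the list median, 0 in replicate 2 and 4 in replicate 3, while the pooled list had 2, at 0.724 and 0.709 times its median. Of the 4 in replicate 3, 1 was stronger, at 2.89 times the median and rank 3616, and lay 14138 bp from the TSS near the far end of the window. The other 3 stood at 0.608 to 1.18. Near its TSS, replicate 3 had a peak 109 bp away at 1.18 times the median and replicate 1 had a peak 590 bp away at 0.623 times the median. The replicates thus did not agree on a promoter peak. The nearest IDR summit, at 1167466, lay 5003 bp outside the gene model, just beyond the limit of 5 kb, with a signal of 325 and rank 4349. Its interval (1167218 to 1167713) also held the summits of the strongest peaks of replicates 1 and 3 in the window, at 1167491 and 1167490. These replicate peaks and the IDR peak are thus 1 site at the window's edge. The lack of an IDR summit for pho rests on the exact limit of 5 kb. Just inside that limit lay the Su(z)2 summit at 4553 bp and the ph-p summit at 4337 bp, with signals of 400 and 714. The strongest summits in the Psc and ph-p windows lay at 4051 and 4126 bp, with signals of 2413 and 1614. Their place in these windows likewise depends on the limit. In the pho window 13.8% of 31-base words were repeated in the genome.

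Scm (3R, 9633359 to 9637611, minus strand) had 2 IDR summits, and neither was at its promoter. They lay 1169 and 2573 bp beyond its 3′ end, with signals of 660 and 628. The first was 519 bp from the TSS of SpdS and the second was 65 bp from that of Calr, a calreticulin gene. The stronger stood at 5.16, 3.52 and 4.55 times the list median in replicates 1, 2 and 3. Within 1 kb of the Scm TSS the replicates did list peaks, the strongest at 0.991, 1.03 and 0.673 times their medians. They ranked 15212, 14275 and 25387 of 30000, so that of replicate 3 was among the weaker peaks of its list. That of replicate 1 lay 730 bp inside the gene, and those of replicates 2 and 3 lay 465 and 462 bp upstream.

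**Figure D2:**
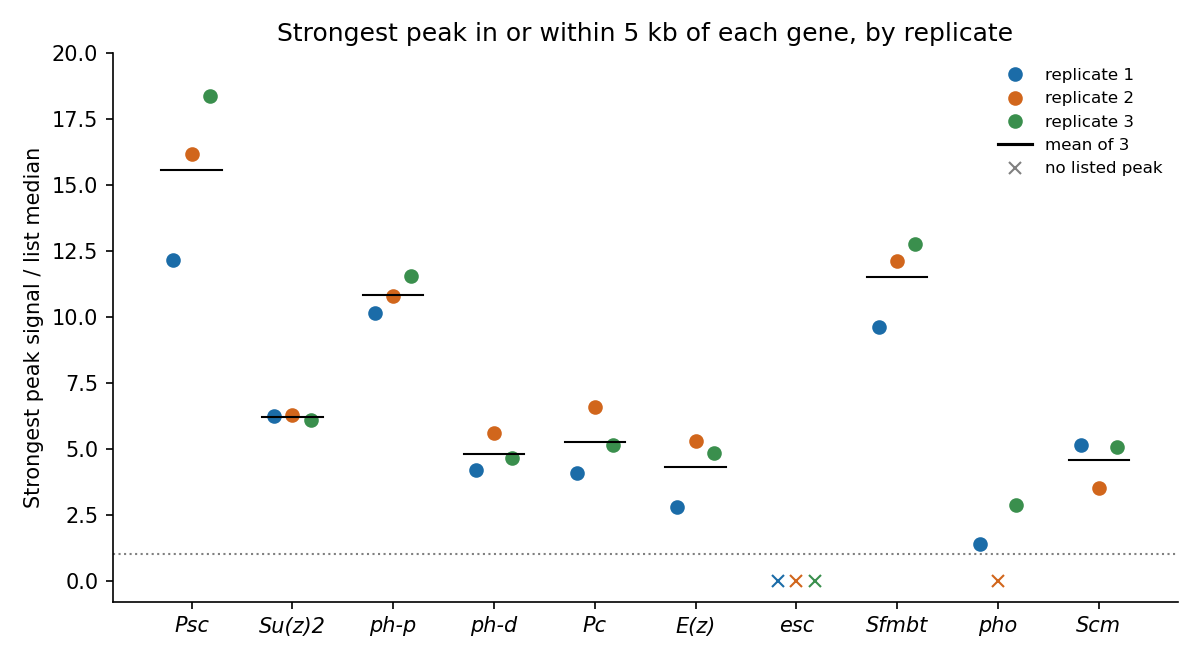
Signal of the strongest peak in or within 5 kb of each gene, divided by the median of the replicate's list (vertical axis), for each of the 3 replicates (points) with their mean (line); crosses mark genes with no listed peak and the dotted line is the list median. Psc, Sfmbt and ph-p stand at 9.62 or more in every replicate, and the other members at 6.57 or less.

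Ordered by this strongest value, Psc, Sfmbt and ph-p stood above the other members in every replicate. Their means were 15.6, 11.5 and 10.8 times the list median. Psc was above Sfmbt in each of the 3 replicates although their ranges overlapped, and Sfmbt was below ph-p in replicate 1 and above it in the others. Su(z)2 (6.20), Pc (5.26), ph-d (4.82), Scm (4.58) and E(z) (4.31) followed, and each neighbouring pair in that order overlapped. The gap between the first 3 and the others lay between Sfmbt at 9.62 in replicate 1 and Pc at 6.57 in replicate 2. The median over all 10 members, with unlisted genes lowest, was 4.68, 5.95 and 5.10 in replicates 1, 2 and 3 (5.24 ± 0.649, SD, n = 3). Over all protein-coding genes it was 1.60 ± 0.103. A longer window can only raise its strongest value, and the median window was 18.4 kb for the members against 12.2 kb for all genes. Window length was not allowed for in this comparison. For Psc, ph-p, Pc and Scm the strongest value came from outside the promoter, and within 1 kb of a TSS the means were 5.31, 9.16, 2.34 and 0.898.

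**Figure D3:**
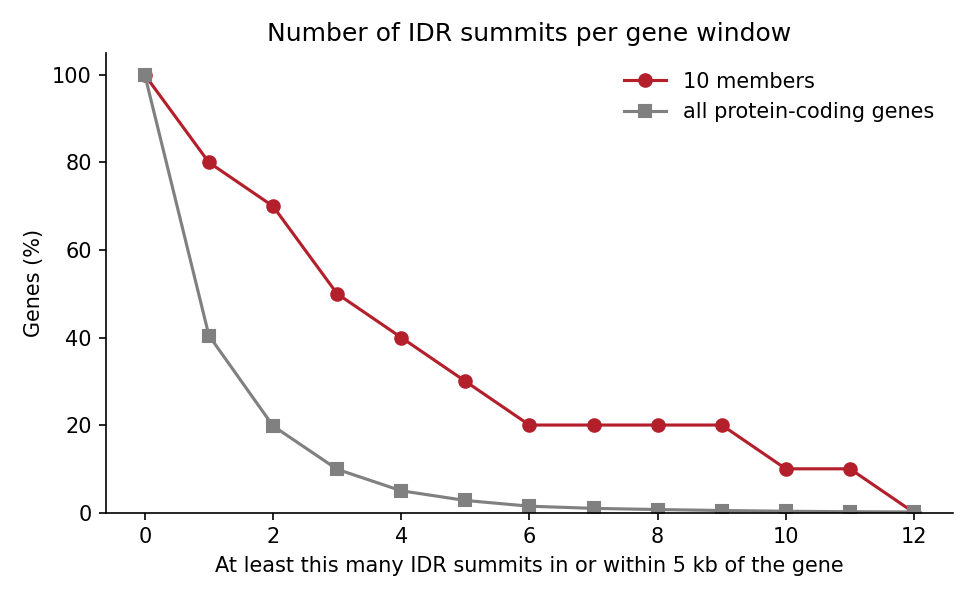
Share of genes (vertical axis, percent) with at least the given number of IDR summits in or within 5 kb (horizontal axis), for the 10 members (red) and all protein-coding genes (grey). At 3 or more summits the shares were 50% and 9.89%, and at 9 or more 20% and 0.473%; window length was not allowed for.

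Strong peaks of the replicates overlapped the intervals of most of these summits. Of the 34, 29 (85.3%) had a matching strong peak in each of the 3 replicates, against 71.2% of all IDR peaks, and the other 5 in 2 replicates. Strong peaks were the strongest of each replicate, as many as the IDR list holds, and a match is an overlap of at least 50% of either peak. In the complete lists each of the 34 had an overlapping peak in all 3 replicates. Several summits can share an interval, and a match of the interval counts for each of them. Where a strong peak had to have its own summit within 100 bp, 25 of the 34 (73.5%) were matched in each replicate, against 55.5% of all IDR summits. Those lost by this rule were both upstream ph-d summits, both Psc promoter summits and the Su(z)2 summit 218 bp past its internal TSS, and the 3′ UTR summit of Su(z)2 was gained. The 5 exceptions by overlap were the Pc promoter summit, an intronic Psc summit and the Su(z)2 summits in the 3′ UTR, 4553 bp upstream and at the outermost TSS. The summits of overlapping peaks in the replicates lay a median of 19.5 bp from the IDR summit, against 21 bp for all IDR peaks. The IDR list was made from the replicate lists, so this agreement is partly built into it. A match requires a strong replicate peak, and the members' summits were stronger than the list. Their median IDR signal was 627, against 473 for all IDR peaks, and strength was not allowed for in these shares.

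Among the 5 motifs, GCCAT and CAGGTA lay near a smaller share of the members' summits than of all IDR summits, while the share for GTGTGT depended on the distance. None of these differences was tested. Within 100 bp of a summit, GAGAG occurred at 13 of the 34 (38.2%, against 35.3% of all IDR summits) and GTGTGT at 14 (41.2% against 28.7%). Within 50 bp, GTGTGT occurred at 6 (17.6%), near the 16.8% of all IDR summits. At 100 bp, GCCAT occurred at 6 (17.6% against 32.2%), CAGGTA at 1 (2.94% against 13.2%) and TATCGATA at 1 (2.94% against 2.08%). The richest window for GAGAG, with 7 matches that may overlap, lay at the outermost TSS of Su(z)2. The richest for GTGTGT, with 13, lay around the Su(z)2 summit 218 bp past the internal TSS. The strongest summit, upstream of Psc, held 5 GTGTGT matches and 1 GAGAG. Windows around neighbouring summits overlap, so the 34 are not separate sequences, and a match does not show that a factor binds.

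Promoter peaks also lay at other genes of the Polycomb pathway. Of 26 genes, 12 (46.2%) had an IDR summit within 1 kb of a TSS, against 18.4% of all protein-coding genes. They were at 6 of 9 recruiters and cofactors, 2 of 6 genes of PRC2 and its partners, 1 of 4 of PRC1 and relatives, 1 of 2 of PR-DUB, and 2 of 5 others. The strongest 4, a number chosen after the values were seen, were all among the recruiters and cofactors. The gene grh, for a tissue-specific transcription factor, had 2004, Dsp1, an HMG box protein gene, had 1464, phol, the paralogue of pho, had 856 and cg, the Combgap gene, had 790. The gene sba had 707, jing 560, psq (Pipsqueak) 512, lolal 490, the demethylase-family gene Kdm2 458, corto 404, the PR-DUB subunit gene Asx 344 and Jarid2 343. No promoter summit was listed for the PRC1 and PRC2 genes Sce, Su(z)12, Caf1-55, escl and Pcl. Nor was there one for RYBP, l(3)73Ah, caly, Spps, Trl, z, sxc, l(3)mbt and crm. The paralogues therefore differed, since phol had a promoter peak and pho had none, while neither esc nor escl had one.

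**Figure D4:**
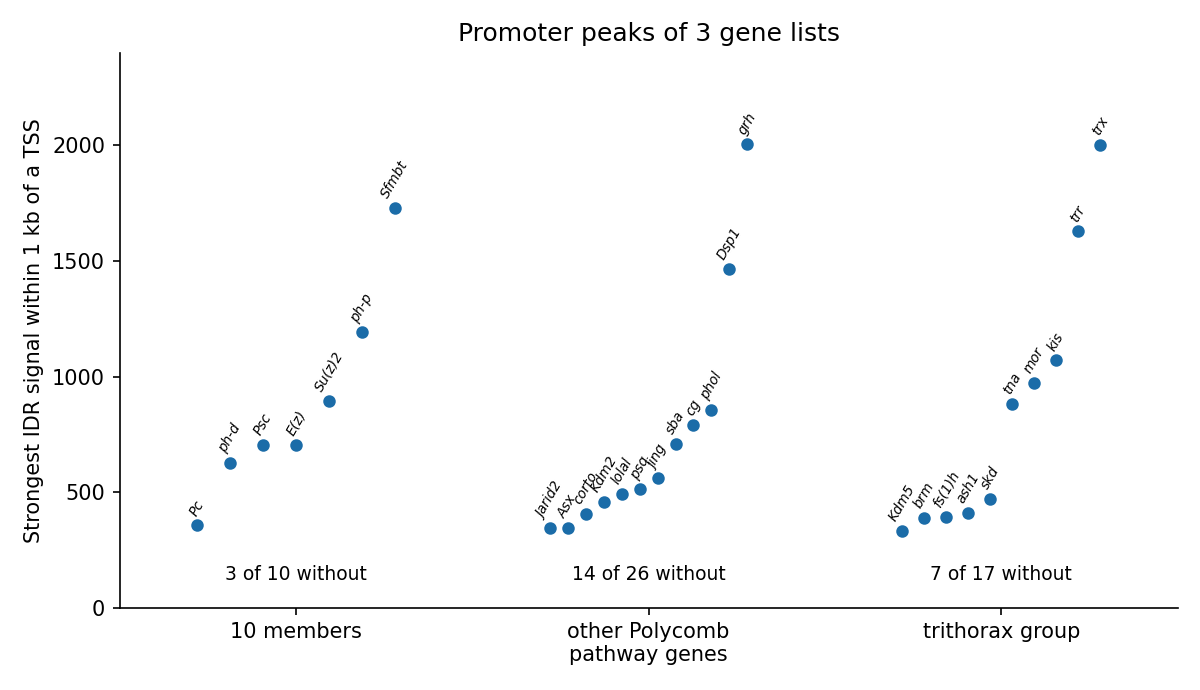
Strongest IDR signal within 1 kb of a TSS (vertical axis) for each gene with such a summit, in the 10 members, the 26 other Polycomb pathway genes and 17 trithorax group genes (horizontal axis; points are spread sideways by rank). Genes without a promoter summit are counted at the bottom; Sfmbt at 1730, grh at 2004 and trx at 2003 are the highest of the 3 lists.

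Trithorax group genes, whose products keep the same targets active, gave values side by side with these. A promoter summit was listed at 10 of 17 (58.8%), with trx at 2003, trr at 1628, kis at 1070, mor at 972 and tna at 882. ash1, brm, fs(1)h, skd and Kdm5 had 333 to 472, and ash2, osa, Snr1, Utx, kto, Bap55 and Bap60 had none. The median promoter signal of genes with such a summit was 705 for the members, 536 for the other pathway genes, 677 for the trithorax genes and 487 for all protein-coding genes. An IDR summit lay in or within 5 kb of 13 of the 17 trithorax genes (76.5%). The same held for 17 of the 26 other pathway genes (65.4%) and 80% of the members. The median number of summits in the window was 2 in both of these lists, against 2.5 for the members. The pathway gene jing, with 20, and tna, with 16, had more than any member. Differences between these lists were not tested.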

How the data were processed

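Per the text files deposited with the peaks, the authors derived each replicate's list from its alignment and a control shared by all 3, the pooled list from all alignments and that control, and the IDR list from these lists, on dm6. No aligner or peak caller is given in the sources used here. The deposited signal value of each peak has no stated scale and was used only within a list. The deposited −log10 q-values (column 9) were not used to rank peaks. The last column, deposited by the authors as another number, is the summit's offset in bp.

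The annotation was Ensembl release 115, and bases were read from the RefSeq assembly of dm6. Windows reached 5000 bp beyond the gene model, promoters 1000 bp from any TSS. A summit within 500 bp of a protein-coding TSS was annotated as promoter before any exon, intron or intergenic class. Counting was done in Python 3.11.15 with pandas 2.3.3 and numpy 2.4.6 and tested on simulated peaks. Depth is unknown, so no counting intervals are given. Members and lists were chosen with earlier results of these data known. All members were named, with the other list genes and genes whose TSS a member's summit adjoined. The symbols calypso, dsp1 and lid were matched to caly, Dsp1 and Kdm5 through RefSeq synonyms. Alternatives were other distances, overlaps, the stronger IDR peaks and leaving out each replicate, for which IDR peaks had to be matched in both others. With 1 group, no conditions were tested. Alignments and signal tracks were not used here.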

Additional observations from a re-analysis of the deposited data

How the results depend on the processing

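The count of members with an IDR summit near them (8) was 8 within 2 kb, 9 within 10 kb, where pho joined, and 8 without any 1 replicate. The count with a promoter summit (7) was 7 within 500 bp or 2 kb, 6 among the stronger IDR peaks, and 6 to 7 without a replicate, and Pc was the member lost among the stronger peaks and without replicate 1 or 3. Summits in the windows (34) ranged from 24 to 42 over these settings, and 23 remained when only the nearest TSS counted, an assignment chosen after seeing the data. Summits matched in all replicates (29) ranged from 25 to 34, and other pathway genes with a promoter summit (12) from 8 to 15. The median strongest signal (5.24 times the list median) was 4.34 within 1 kb of a TSS and 4.89 to 5.53 without a replicate. As a rank percentile, another scale, it was 96.1. With 50 bp to either side of summits, GAGAG was found at 8 in place of 13 (23.5% against 20.1% of all IDR summits), GTGTGT at 6 in place of 14 (17.6% against 16.8%), GCCAT at 4 in place of 6 (11.8% against 18.4%), CAGGTA at 1 (2.94% against 7.01%) and TATCGATA at 0 in place of 1. No paired analysis was possible because there was 1 group. Unknown read depth limits what the absence of a peak at esc or pho can say.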
